A study of Homo sapiens with 6 samples.

Results

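The genes described here are 10 genes of catecholamine and acetylcholine transmission, taken by symbol from the 60676 entries of a gene count table, whatever their values. The 5 adrenergic genes are TH, DDC, DBH, SLC18A1 and SLC18A2. The 5 cholinergic genes are CHAT, SLC18A3, ACHE, CHRNA3 and CHRNB2. The cells were SK-N-BE, an established line of human neuroblastoma, after 1.5 days in differentiation medium with 10 µM retinoic acid, which all 6 libraries share. The libraries comprise 2 of the input extract, 2 of RNA recovered with biotinylated probes against CyCoNP (CyCoNP PD) and 2 of RNA recovered with probes against LacZ (LacZ PD), a bacterial gene used as the control. CyCoNP is the long non-coding RNA LINC02381, which the study examined for the RNAs it binds. All libraries come from a single cell line, and its noradrenergic character limits it as a model of cholinergic neurons.

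Catecholamines are made in steps. Tyrosine hydroxylase (TH) forms L-DOPA and is the rate-limiting enzyme, aromatic L-amino acid decarboxylase (DDC) forms dopamine, and dopamine β-hydroxylase (DBH) converts dopamine to noradrenaline inside vesicles. The vesicular monoamine transporters VMAT1 (SLC18A1) and VMAT2 (SLC18A2) load the vesicles. In cholinergic neurons, choline acetyltransferase (CHAT) makes acetylcholine, the vesicular transporter VAChT (SLC18A3) packs it, acetylcholinesterase (ACHE) breaks it down, and nicotinic receptors built from subunits such as CHRNA3 and CHRNB2 respond to it. Sympathetic neurons are themselves reached by cholinergic fibres, so noradrenergic cells commonly carry nicotinic receptor subunits without making acetylcholine. Most neuroblastomas have this noradrenergic character.

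SLC18A3 lies inside the CHAT locus. In GENCODE v44, on GRCh38, its 1 exon occupies chr10:49610310-49612720 on the plus strand, within intron 1 of CHAT (49609200 to 49616501) in 1 of the 12 annotated CHAT transcripts, and no CHAT exon overlaps it. The study also followed miR-4492, a microRNA with predicted sites in CyCoNP that it recovered in CyCoNP pull-downs. It reports less SLC18A3 RNA after CyCoNP knockdown and slightly more after miR-4492 was blocked. The mature miR-4492 sequence is printed with the seed, bases 2 to 8, in capitals. With it are 30 bases of SLC18A3, in which capitals mark the complement of that seed. The microRNA is from RefSeq (GRCh38.p14, chr11:118910765-118910781, plus strand), and the SLC18A3 stretch is chr10:49612345-49612374 on GRCh38, with the match starting 17 bases past the stop codon.
hsa-miR-4492: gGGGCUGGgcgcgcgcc
SLC18A3 site: ccactcctcctCCAGCCCacccaaccgcct
The letters CCAGCCC, searched on the sense strand, occur in the longest transcript of 6 of the 10 genes (DBH, SLC18A2, CHAT, SLC18A3, CHRNA3 and CHRNB2) and of 43.8% of the 12528 tested genes with a transcript. CHAT holds 5 matches and DBH holds 2, and the others hold 1 each. A match describes letters only, and the microRNA was not measured in these libraries.

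Several libraries stood apart. Library totals ran from 514882 to 1512148 counts in input and CyCoNP PD and were 18870 and 140115 in LacZ PD, so that 3 counts correspond to 159 CPM (a library's counts scaled to a common total of 1e6) in LacZ PD 1 against 1.98 CPM in CyCoNP PD 1. All 3 replicate 1 libraries held skeletal muscle transcripts. Over 12 muscle genes, chosen after their values were seen, the summed level was 1970, 3086 and 3551 CPM in replicate 1 of input, CyCoNP PD and LacZ PD, against 5.05, 15.5 and 21.4 CPM in replicate 2. The muscle regulator MYOG had 666, 1284 and 22 counts in the replicate 1 libraries and 1, 0 and 0 in the replicate 2 libraries. The 5 fibroblast markers did not move together. Their sum was 246 to 478 CPM in replicate 1 and 28.5 to 73.8 CPM in replicate 2 through collagen genes such as COL1A1, while LUM was higher in replicate 2 of each group, at 18.9, 38.8 and 14.3 CPM against 11.1, 5.29 and 0 CPM. The 11 noradrenergic markers were all detected in both input libraries and summed to 3318 and 3285 CPM there. Of the motor neuron markers, LHX3 and CHAT had 0 counts in every library. The glial markers SOX10 and CDH19 were at 0, as were PTPRC, LYZ and CD3E among immune markers and PECAM1 and VWF among endothelial ones. CyCoNP itself was counted 11687 and 3507 times in CyCoNP PD, 20 and 39 times in input and 1 and 20 times in LacZ PD. The study calls its pull-down samples biological duplicates without saying how their cultures were separated, and p-values measure the spread between these libraries.

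In the input, the 3 enzymes of catecholamine synthesis were expressed well and the enzyme of acetylcholine synthesis was not detected. DBH reached 203 and 200 CPM in the input libraries, DDC 142 and 194 CPM, and TH 124 and 139 CPM. CHAT had 0 counts in all 6 libraries, which allows at most 1.99 CPM over both input libraries and 18.9 CPM over both LacZ PD libraries (3 counts of the group total). These limits, like the Wilson and exact counting intervals given below, cover counting error only. The reads carry no molecular identifiers, so PCR copies of a molecule count separately. The intervals of log2 fold changes also take in the spread between libraries. The nicotinic subunit CHRNA3 was the exception among the cholinergic genes, with 233 and 141 CPM in input.

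The remaining genes were expressed at low levels in input. The VMAT1 gene SLC18A1 had 12.5 and 22.7 CPM. The VAChT gene SLC18A3 had 10 counts in each input library, or 13.9 and 12.6 CPM, although CHAT, the gene around it, had none. SLC18A2 and CHRNB2 differed widely between the input libraries. SLC18A2 had 1 count in input 1 and 17 in input 2, and CHRNB2 had 16 and 2. ACHE had 1 and 0 counts. The plot of levels by library shows the contrast between the 3 synthesis enzymes, CHRNA3 and the remaining 6 genes.

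**Figure D1:**
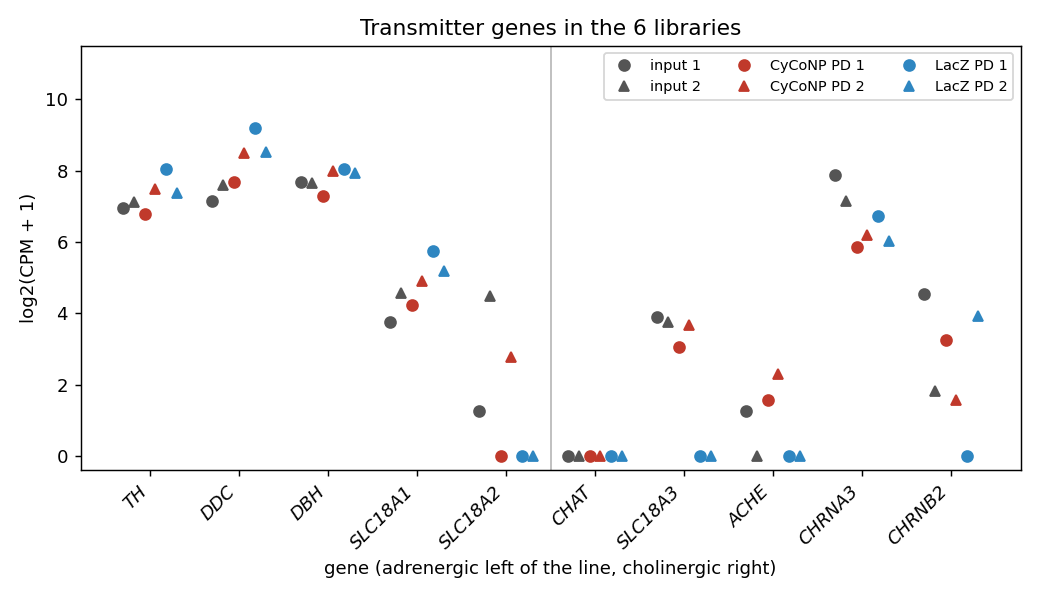
Level of each of the 10 transmitter genes in each of the 6 libraries, as log2(CPM + 1). Circles are replicate 1 and triangles replicate 2 of input (grey), CyCoNP PD (red) and LacZ PD (blue). TH, DDC and DBH are high in every library, CHAT is at 0 in every library, and CHRNA3 is lower in the 4 pull-down libraries than in both input libraries. The CHRNA3 value in LacZ PD 1 rests on 2 counts.

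Levels of different genes were set side by side per kilobase of the longest annotated transcript. On this scale the mean input level was 83.6 ± 18.4 CPM per kb for DDC (SD, n = 2), 73.4 ± 0.996 for DBH, 68.8 ± 5.52 for TH and 62.0 ± 21.4 for CHRNA3. The input values of each of these 4 genes overlapped those of the next in this order, so their order is within the spread. CHRNA3 was above SLC18A1, which had 5.96 ± 2.44 CPM per kb, with no overlap. SLC18A1 overlapped SLC18A3 at 5.51 ± 0.382, and SLC18A3 lay above SLC18A2 at 2.77 ± 3.44 CPM per kb. CHRNB2 followed at 2.12 ± 2.39 and ACHE at 0.236 ± 0.333 CPM per kb. A Nanopore read is made from a whole cDNA molecule, so counts need not scale with transcript length. Transcript lengths ran from 1910 bases (TH) to 5857 bases (CHRNB2), beside a median of 3520 bases over the tested genes, and GC content ran from 42.9% (SLC18A2) to 67.2% (SLC18A3).

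Adrenergic genes took the larger part of the members' counts in every library. Their share was 64.1% in input 1 (95% Wilson interval 60.0 to 68.1%) and 78.7% in input 2 (75.1 to 81.8%). It was 86.5% (84.1 to 88.7%) and 90.3% (87.2 to 92.6%) in the CyCoNP PD libraries, and 91.7% (74.2 to 97.7%) and 91.1% (84.8 to 94.97%) in the LacZ PD libraries. All 4 pull-down libraries were above both input libraries. The mean share was 71.4 ± 10.3% in input (SD, n = 2), 88.4 ± 2.63% in CyCoNP PD and 91.4 ± 0.380% in LacZ PD. The differences from input were 17.0 and 20.0 percentage points, each with p = 0.333 in a two-sided exact permutation test over libraries, which is the smallest p that 2 against 2 libraries allow. Both comparisons share the input libraries.

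**Figure D2:**
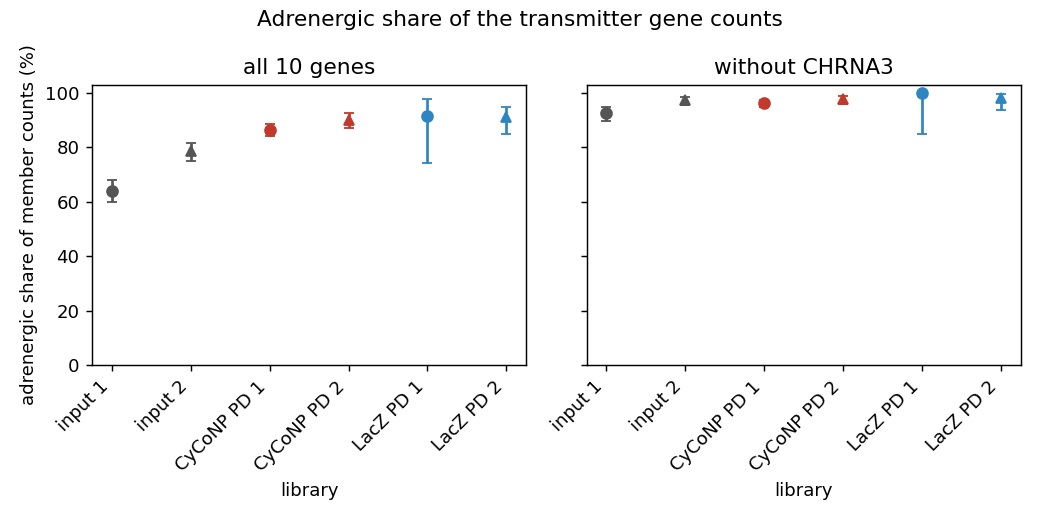
Adrenergic share of the counts of the transmitter genes in each library, with 95% Wilson intervals that cover counting error only, for all 10 genes (left) and without CHRNA3 (right). With all genes the input libraries (grey) are the lowest, at 64.1% and 78.7%. Without CHRNA3 the shares run from 92.8% to 100%.

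Most cholinergic counts were CHRNA3. Without this gene, an alternative chosen after seeing the data, the mean adrenergic share was 95.1 ± 3.30% in input, 97.2 ± 1.05% in CyCoNP PD and 99.1 ± 1.23% in LacZ PD. In input, CHRNA3 made up 30.9% and 19.3% of the members' counts, against 10.3% and 7.84% in CyCoNP PD. In LacZ PD it made up 8.33% and 7.26%. DDC moved the other way, from 18.9% and 26.5% in input to 36.2% and 39.4% in CyCoNP PD, while in LacZ PD it was 45.8% and 41.1%. TH stayed between 16.5% and 20.8% in all 6 libraries.

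The comparison of CyCoNP PD with input asks which transcripts came down with CyCoNP. None of the 10 transmitter genes was called. With edgeR's quasi-likelihood test and Benjamini-Hochberg adjustment, and a call at an adjusted p under 0.05 with a log2 fold change beyond 1, 0 of the 8 genes with enough counts passed, against 0.127% of the 12565 genes tested. CHAT and ACHE had too few counts to be tested. DESeq2 also called 0 of the 8, against 0.573% of all genes, and so did edgeR with the replicate number as a block (a term for each replicate number), against 2.26%. At an unadjusted p under 0.05 edgeR listed 1 gene of the 8, CHRNA3, against 5.40% of all genes. The median log2 fold change over the 8 genes was -0.19, beside -0.0085 over all genes tested.

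For the 3 synthesis enzymes no change passed the test in CyCoNP PD. TH had 110 and 177 CPM in CyCoNP PD, a range that spans both input values. The log2 fold change of TH was 0.17 (SE 0.59, 95% interval -1.10 to 1.44, edgeR adjusted p = 1.00). DBH had 154 and 254 CPM in CyCoNP PD, also on either side of its input values. For DBH it was 0.071 (SE 0.60, interval -1.21 to 1.35, edgeR adjusted p = 1.00). DDC had 203 and 361 CPM, both above its input values of 142 and 194 CPM. The DDC value of 0.78 (SE 0.61, interval -0.52 to 2.08) did not pass the test either (edgeR adjusted p = 1.00).

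The vesicular transporters gave wider intervals. SLC18A1 had 17.9 and 29.1 CPM in CyCoNP PD, overlapping its input values, with a log2 fold change of 0.41 (SE 0.71, interval -1.11 to 1.93). SLC18A2 had 0 and 3 counts in CyCoNP PD against 1 and 17 in input, and its pooled CPM ratio was 0.124 with an exact counting interval of 0.0234 to 0.425. That ratio rests on 17 counts in input 2, and the edgeR interval of its log2 fold change, which takes in the spread between libraries, was -5.84 to 1.11. The fitted log2 fold change was -2.36 and became -0.97 without CyCoNP PD 1, and without input 2 the gene fell under the count minimum. SLC18A2 is overlapped by the opposite-strand genes SLC18A2-AS1 (0 and 4 counts in input) and PDZD8 (11 and 10), from which its reads cannot be told apart where strand is not used.

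SLC18A3 was detected in CyCoNP PD as in input, and its difference did not pass the test. It had 11 and 6 counts in CyCoNP PD, or 7.27 and 11.7 CPM, both below its input values of 13.9 and 12.6 CPM. The log2 fold change was -0.46 (SE 0.93, interval -2.46 to 1.54, edgeR adjusted p = 1.00). Over pooled counts, 17 against 20, the CPM ratio was 0.633 with an exact counting interval of 0.311 to 1.27, which includes 1. In the replicate 2 libraries alone, without the muscle transcripts, the log2 ratio was -0.12.

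CHRNA3 was lower in both CyCoNP PD libraries, but the difference did not pass the adjusted test. It had 57.5 and 71.9 CPM there, below both input values of 233 and 141 CPM. The log2 fold change was -1.45 (SE 0.60, interval -2.74 to -0.16), or 0.366 times the input level, with an edgeR adjusted p of 0.815. Over the other 14 fits the log2 fold change ran from -1.69 to -1.16 and the adjusted p from 0.137, with the block, to 1.00. In the replicate 2 libraries alone the log2 ratio was -0.98. CHRNA3 overlaps the opposite-strand gene CHRNA5, which in CyCoNP PD had 11 and 7 counts, against 23 and 11 in input.

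CHRNB2 followed the replicate rather than the group in input and CyCoNP PD. It had 16 and 13 counts in the replicate 1 libraries of input and CyCoNP PD and 2 and 1 counts in replicate 2. The fitted value was -0.91 (SE 1.12, interval -3.30 to 1.49). Without input 1 the value became 1.12, so its direction rests on 1 library. The replicate 1 libraries are those with muscle transcripts, and the part of these in the CHRNB2 counts was not tested. ACHE had 3 and 2 counts in CyCoNP PD against 1 and 0 in input, a pooled CPM ratio of 3.72 with an exact counting interval of 0.417 to 176.

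Among the 8 genes, the libraries of CyCoNP PD and input did not overlap in CPM for 3, namely DDC (higher), SLC18A3 and CHRNA3 (lower). Over all tested genes the 2 groups did not overlap for 36.3%.

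LacZ PD shows what the beads and unrelated probes recover, and again no transmitter gene was called. Of the 8 genes tested, edgeR called 0, against 0% of all genes. DESeq2 also called 0, against 0.470%, and edgeR with the block 0, against 0.923%. At an unadjusted p under 0.05 edgeR listed 1, CHRNA3, against 7.02% of all genes. The median log2 fold change over all genes was -0.68 in this comparison, so values are also given relative to it. CHRNA3 had 2 and 9 counts in LacZ PD, or 106 and 64.2 CPM, both below its input values. Its log2 fold change was -1.70 (SE 0.70, interval -3.20 to -0.19, edgeR adjusted p = 0.666), which is -1.01 relative to the median.

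DDC was again on the high side, with 11 and 51 counts in LacZ PD, or 583 and 364 CPM. The DDC value was 0.89 (SE 0.63, interval -0.46 to 2.25, edgeR adjusted p = 0.768), or 1.58 relative to the median. For TH, with 5 and 23 counts, the value was 0.12 (interval -1.26 to 1.50), or 0.80 relative to the median. DBH had 5 and 34 counts and a log2 fold change of -0.13 (interval -1.49 to 1.23), or 0.55 relative to the median. Its sign also turned, to 0.32, when libraries were scaled by their totals alone. SLC18A1 had 1 and 5 counts and a value of 0.76 (interval -1.14 to 2.67), or 1.45 relative to the median.

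Neither SLC18A3 nor SLC18A2 had a count in LacZ PD. At the depth of these libraries 3 counts over the group correspond to 18.9 CPM, above the mean input level of SLC18A3 (13.3 CPM) and of SLC18A2 (11.4 CPM), so a difference from input was not detectable for either gene. ACHE also had 0 counts, and CHRNB2 had 0 and 2. The CPM of LacZ PD and input did not overlap for 7 of the 8 genes (TH, DDC, DBH and SLC18A1 higher, SLC18A2, SLC18A3 and CHRNA3 lower), beside 44.3% of all tested genes. SLC18A2 and SLC18A3 count here only through their values of 0. In LacZ PD 1, 1 count is 53.0 CPM, so the 1 SLC18A1 count there lay above both input values of that gene. These CPM are scaled by library totals alone, and the fitted log2 fold change of DBH, -0.13, was on the other side.

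**Figure D3:**
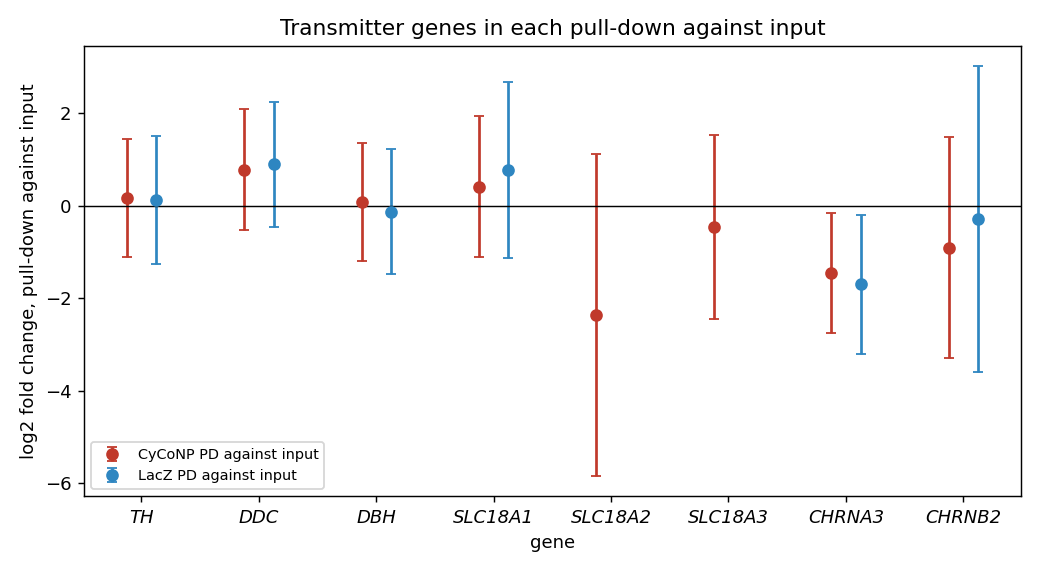
Log2 fold change of the tested transmitter genes in CyCoNP PD (red) and LacZ PD (blue) against input, with 95% intervals from edgeR. SLC18A2 and SLC18A3 have no LacZ PD value because they had 0 counts there. Every interval includes 0 apart from those of CHRNA3, at -1.45 and -1.70, which share the input libraries and whose edgeR adjusted p-values were 0.815 and 0.666. Plotted values are not relative to the median over all genes, which was -0.68 for LacZ PD. Relative to that median CHRNA3 was at -1.01 in LacZ PD.

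Set directly against each other, the pull-downs gave no called difference for any transmitter gene. edgeR called 0 of the 8 genes, against 0% of all genes, and listed 0 at an unadjusted p under 0.05, against 5.20% of all genes. DESeq2 called 0 as well, against 0.302%, and edgeR with the block 0, against 0.772%. The log2 difference, CyCoNP PD against LacZ PD, was 0.25 for CHRNA3 (interval -1.26 to 1.76), -0.12 for DDC (-1.46 to 1.23), 0.048 for TH (-1.33 to 1.42), 0.20 for DBH (-1.15 to 1.56) and -0.35 for SLC18A1 (-2.23 to 1.53). The signs of TH, DBH and CHRNA3 turned when libraries were scaled by their totals alone. The intervals reach beyond a log2 difference of 1 in both directions for each of these 5 genes, so differences of that size lie within them. The median log2 difference over all genes was 0.64 in this comparison. Relative to it the log2 differences were -0.40 for CHRNA3, -0.76 for DDC, -0.59 for TH, -0.44 for DBH and -0.99 for SLC18A1. CPM did not overlap for 3 of the 8 genes, DDC and SLC18A1 (lower in CyCoNP PD) and SLC18A3 (higher), beside 38.9% of all tested genes. SLC18A3 counts here only through its values of 0 in LacZ PD. SLC18A1 had 1 count in LacZ PD 1, where 1 count is 53.0 CPM.

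Complementarity to the probes was short for all 10 genes. The longest exact complement to any of the 22 CyCoNP probes was 8 to 12 bases, with a median of 9, beside a median of 10 over the tested genes. For the 5 LacZ probes the median was 8 bases, as over all tested genes. The probes with the longest complements to CHRNA3 and DDC, the genes with the largest shifts in their share, are printed with the complementary stretch in capitals.
CyCoNP probe 2, CHRNA3: gggaactggAGGGAGAGGtc
CyCoNP probe 11, DDC: caaagacgGAAGCTGCTtct

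Genes that serve catecholamine synthesis, uptake and breakdown ranged from abundant to undetected in input. Of 9 cofactor and accessory enzymes, all were detected in both input libraries and 8 were tested. CYB561, which regenerates ascorbate in the vesicles for DBH, had 298 and 116 CPM, QDPR, which recycles the cofactor tetrahydrobiopterin, had 116 and 61.9 CPM, and PTS, an enzyme of its synthesis, had 85.0 and 88.4 CPM. In CyCoNP PD against input edgeR called 0 of the 8, beside 0.127% of all genes, and listed 0 at an unadjusted p under 0.05, beside 5.40%. DESeq2 called 0, beside 0.573%. With the block edgeR called 0, beside 2.26%. It listed 1 at an unadjusted p under 0.05, for which the share over all genes was not computed. Of 9 genes of uptake and breakdown, 7 had counts. The noradrenaline transporter SLC6A2 had 221 and 135 CPM in input and the aldehyde reductase AKR1B1 had 111 and 115 CPM, while SLC6A3 (the dopamine transporter) and MAOB were at 0 in all libraries. Of 14 adrenergic and dopamine receptors, 10 were at 0 in every library, and the highest, ADRA2C, had 4 and 5 counts in input.

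ALDH2, a mitochondrial aldehyde dehydrogenase that can oxidise the aldehydes of catecholamine breakdown, had the lowest p in CyCoNP PD against input among the pathway lists. It was singled out after its values were seen. It had 380 and 179 counts there, against 19 and 33 in input and 2 and 8 in LacZ PD. The log2 fold change against input was 3.16 (SE 0.66), with an adjusted p of 0.0880 in edgeR, 0.000198 in DESeq2 and 3.27e-06 in edgeR with the replicate block. Of the 6 uptake and breakdown genes tested, only ALDH2 was called, in the latter 2 fits, beside 0.573% and 2.26% of all genes. Against LacZ PD the value was 2.57 (SE 0.73), with an adjusted p of 0.599 in edgeR, 0.117 in DESeq2 and 0.0219 in edgeR with the block.

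Of 9 genes of acetylcholine handling, 8 had counts, and the choline transporter SLC5A7 was at 0 in every library. The 3 highest in input act beyond cholinergic neurons. ACLY, which makes cytosolic acetyl-CoA, had 205 and 96.0 CPM, BCHE, a second cholinesterase, 43.2 and 41.7 CPM, and the choline kinase CHKA 20.9 and 6.31 CPM. Of 5 muscarinic receptors, CHRM3 was highest, with 25 and 21 counts in input. It had 4 and 6 counts in CyCoNP PD and 0 in both LacZ PD libraries. Its log2 fold change in CyCoNP PD was -2.20 (SE 0.90, edgeR adjusted p = 0.815). Of these lists 6 and 2 genes were tested. None was called in CyCoNP PD by edgeR, beside 0.127% of all genes, by DESeq2, beside 0.573%, or by edgeR with the block, beside 2.26%. At an unadjusted p under 0.05 edgeR without the block listed CHRM3, beside 5.40% of all genes. With the block it listed CHRM3 and CHKA, and the share over all genes at this threshold was not computed for that fit.

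Among 17 nicotinic subunits and chaperones, 12 had counts and 8 were tested. RIC3, a chaperone of nicotinic receptors, had 158 and 824 counts in input, or 220 and 1040 CPM, and 178 and 293 CPM in CyCoNP PD. CHRNB4, which pairs with CHRNA3 in ganglionic receptors, had 26.5 and 44.2 CPM in input, 25.1 and 58.3 in CyCoNP PD, and CHRNA5 had 32.0 and 13.9 CPM in input. The muscle subunit CHRNA1 had 5, 133 and 4 counts in the replicate 1 libraries of input, CyCoNP PD and LacZ PD and 0 in every replicate 2 library, as MYOG nearly had. In CPM these replicate 1 values were 6.96, 88.0 and 212, so CHRNA1 was not lower in LacZ PD 1, on 4 counts, than in CyCoNP PD 1. In CyCoNP PD against input edgeR called 0 of the 8, beside 0.127% of all genes, and listed 1 at an unadjusted p under 0.05, beside 5.40%. DESeq2 called 0, beside 0.573%. edgeR with the block, which called 2.26% of all genes, called CHRNA1 (log2 fold change 3.74, adjusted p = 0.00556), which rests on CyCoNP PD 1.

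The vesicle genes had the highest summed level of the pathway lists, 2120 and 1712 CPM in input. Of the 16, 13 had counts in both input libraries. The granins SCG2, CHGB and CHGA, cargo of dense-core vesicles, had 623 and 438, 442 and 321, and 182 and 461 CPM in input. In CyCoNP PD against input edgeR called 0 of the 14 tested, beside 0.127% of all genes, and listed 2 at an unadjusted p under 0.05, beside 5.40%. DESeq2 called 0, beside 0.573%. edgeR with the block called 2, RAB3A and VAMP2, both of the release machinery, beside 2.26% of all genes. RAB3A had 62 and 101 counts in CyCoNP PD against 14 and 18 in input and 1 and 1 in LacZ PD, with a log2 fold change of 2.22 and an adjusted p of 0.00893 in edgeR under the block, and of 2.49 and 0.485 without it. In CPM it had 41.0 and 196 in CyCoNP PD against 19.5 and 22.7 in input. The value without the block fell to 1.04 when CyCoNP PD 2 was left out. VAMP2 had 186 and 13 counts in CyCoNP PD against 10 and 11 in input and 0 and 7 in LacZ PD. Its edgeR log2 fold change against input, without the block, was 2.51, or 0.90 when CyCoNP PD 1 was left out. In the replicate 2 libraries VAMP2 had 25.2 CPM in CyCoNP PD, 13.9 CPM in input and 49.959 CPM in LacZ PD, the last on 7 counts. In these libraries VAMP2 was therefore not higher in CyCoNP PD than in the control. In replicate 1 it had 123 CPM in CyCoNP PD and 0 counts in LacZ PD, where 1 count is 53.0 CPM.

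Of the 10 genes, DBH had the highest mean input CPM, and among the 2707 other genes with a mean input level of at least 50 CPM, those whose levels were most like it over the 6 libraries were KDELR1, RABAC1, CNOT7, CIB1 and CRCP. Likeness was the Euclidean distance between log2 levels centred per gene, which was 0.255 for KDELR1 and 0.398 for CRCP. TH ranked 30 of these genes, with a distance of 0.541, DDC ranked 772 and CHRNA3 ranked 1469. DBH and TH each had 5 counts in LacZ PD 1, so their values there are imprecise.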

How the data were processed

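RNA from 2 input, 2 CyCoNP PD and 2 LacZ PD libraries was sequenced as PCR-amplified cDNA on a Nanopore flow cell. The authors aligned reads to GRCh38 (minimap2 2.24-r1122 in the submitters' processing notes) and used Bambu to count reads per Ensembl gene. They deposited whole-number counts per gene without normalization. The authors also deposited CPM, which differed from counts divided by library totals by at most 5.1e-11. Positions came from GENCODE v44 on the same build, a later annotation than the authors used.

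Genes with at least 10 counts in total, 12565 in all, entered the fit in edgeR 4.0.16, run in R 4.3.3 (TMM, quasi-likelihood F test, 3 groups in one fit). Intervals were derived from the F statistic. The fit was tested on simulated counts. Shares were compared by exact permutation in scipy 1.17.1. Alternatives were other scalings and filters, DESeq2 1.42.0, a replicate block, only the groups compared and leaving out each library. The 10 genes and the gene lists were chosen with earlier results of these data known. Values are given for all 10 genes, the 3 genes of each list with the highest mean input CPM and any called, apart from some list genes whose values are not reported here. ALDH2, RAB3A, VAMP2, CHRNA1, MYOG and the muscle list were chosen after values were seen, as were the alternatives without CHRNA3 and with replicate 2 only.

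Replicates of a group were counted separately. Their counts differed by more than counting noise (chi-square per degree of freedom over genes 4.11 to 18.4), so none was treated as a repeat deposit. Deviations of same-numbered libraries from the group means correlated at 0.219 to 0.442 over 3 distinct pairs, and the replicate number was fitted as a block in an alternative. The reported fit and the permutation test of shares did not use this pairing. No source ties equal numbers to one extract. The depth of LacZ PD, 18870 and 140115 counts, limits every value that involves it.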

Additional observations from a re-analysis of the deposited data

How the results depend on the processing

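No transmitter gene was called in any of the 3 comparisons under the fit reported or the other 14 fits, the smallest adjusted p being 0.137 (CHRNA3, CyCoNP PD against input, edgeR with the replicate block). Pairing the libraries through the block therefore changed the call of none of the 10 genes, and 0 were called with it in each comparison. Of 287 values of single genes under alternatives, 258 kept their direction and 29 turned. None of those 29 was called, and the cause was not tested. In CyCoNP PD against LacZ PD, TH turned to -0.094 with DESeq2-style size factors, -0.49 with library size alone, -0.11 with DESeq2, -0.067 with DESeq2 and the block and -0.019 with filterByExpr, while DBH turned to -0.30 and CHRNA3 to -0.23 with library size alone. In LacZ PD against input, TH turned to -0.036 without a count filter, DBH to 0.32 with library size alone and 0.28 in replicate 2 only, and CHRNB2 to 0.59 with the replicate block and 0.60 with DESeq2 and the block. DBH in CyCoNP PD against input turned to -0.043 with DESeq2 and the block.

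Leaving out 1 library at a time, log2 fold changes in CyCoNP PD against input ran from -0.17 to 0.47 for TH, -0.29 to 0.39 for DBH, -0.015 to 1.02 for SLC18A1 and -2.40 to 1.12 for CHRNB2. In LacZ PD against input they ran from -0.16 to 0.32 for TH, -0.77 to 0.079 for DBH and -1.07 to 1.70 for CHRNB2. In CyCoNP PD against LacZ PD they ran from -0.29 to 0.37 for TH, -0.55 to 0.26 for DDC, -0.16 to 0.85 for DBH and -0.68 to 0.029 for SLC18A1. No value is given where this left a group with 0 counts.

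The adrenergic share in input moved to 96.4% with only TH, DBH, SLC18A1 and SLC18A2 set against CHAT and SLC18A3, which leaves out DDC. With synthesis enzymes only it was 100% in all 3 groups, since CHAT had no counts, and without CHRNA3 it was 95.1%, 97.2% and 99.1% in input, CyCoNP PD and LacZ PD. Per kilobase it was 91.3% in CyCoNP PD and 93.9% in LacZ PD.

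Over all genes, the reported fit of CyCoNP PD against input called 15 genes higher and 1 lower, beside 58 and 14 with DESeq2, 192 and 92 with the block, 87 and 35 with both, 99 and 27 without a filter, 6 and 0 with library size alone and 0 and 0 with only the 2 groups. Leaving out 1 library gave 0 to 91 higher and 0 to 45 lower. The counts in LacZ PD against input rose from 0 and 0 to 16 and 100 with the block, and in CyCoNP PD against LacZ PD from 0 and 0 to 91 and 6.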

Other observations

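Muscle nicotinic subunits other than CHRNA1 had few counts outside CyCoNP PD 1. CHRNG, the fetal subunit, had 3, 34 and 0 counts in the replicate 1 libraries of input, CyCoNP PD and LacZ PD, and 1, 0 and 0 in the replicate 2 libraries. CHRNB1 had 2, 20 and 0 counts in replicate 1 and 1, 0 and 2 in replicate 2, so in LacZ PD it was seen in replicate 2 alone. It had 13.2 CPM in CyCoNP PD 1 and 14.3 CPM in LacZ PD 2. In LacZ PD 1, 1 count is 53.0 CPM, above the level of CHRNB1 and of CHRNG (22.5 CPM) in CyCoNP PD 1. CHRND and CHRNE had 3 and 1 counts in CyCoNP PD 1 and 0 in every other library. These genes were singled out after their values were seen, and no test was made of the pattern.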
